A study of Mus musculus with 8 samples.

Results

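The chemokine system genes of mouse bone marrow-derived macrophages (BMDM) were described in cells given sphingosine, So(d18:1), or its methanol vehicle. They were taken by symbol: Ccl, Cxcl, Cx3cl or Xcl followed by a number for the ligands, and Ccr, Cxcr, Cx3cr or Ackr followed by a number for the receptors, with pseudogenes left out. The 58 of these genes reported here, of 55357 in the count table, were 38 ligands and 20 receptors. BMDM are macrophages grown in culture from marrow in the presence of macrophage colony-stimulating factor (M-CSF), and here they came from C57BL/6J wild-type mice. The 4 Control libraries came from BMDM that received methanol for 6 h, and the 4 So(d18:1) libraries from BMDM that received 2 μM sphingosine in methanol for 6 h. The labels give neither the age nor the sex of the mice, do not say whether libraries of a group came from separate mice or cultures, and name no inflammatory stimulus, although the text of the study places these cells under one. The p-values below therefore measure the spread between these libraries, which may be technical.

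Chemokines are small secreted proteins that direct the migration of leukocytes. They bind receptors with a G protein partner on the target cell, and many receptors take several ligands while many ligands reach several receptors. Atypical receptors (Ackr) bind chemokines without G protein signalling and remove or store them. Macrophages are both a source of chemokines, which draw further monocytes and neutrophils into a tissue, and a target of them, since Ccr2 brings monocytes out of the marrow and Cx3cr1 marks many resident and patrolling cells.

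Between 17748397 and 26088609 reads per library were counted on genes. The 58 genes held 0.3% to 0.333% of the counts of the Control libraries and 0.287% to 0.306% of those of the So(d18:1) libraries. The library type was checked on macrophage markers: Csf1r, the M-CSF receptor, was at 6234 ± 98.2 CPM in Control and at 5986 ± 298 CPM in So(d18:1) libraries (SD, n = 4; CPM are counts scaled to the same total in every library), and Adgre1, which encodes F4/80, at 2213 ± 60.9 and 2187 ± 84.0 CPM. Of 30 genes that macrophages induce under an inflammatory stimulus, 22 had enough counts to be tested. Among these were Nfkbia at 149 ± 4.26 CPM and Icam1 at 95.8 ± 3.09 CPM in Control libraries. Others were barely counted, with at most 5 counts in any library for Il6, 8 for Nos2, 3 for Il12b and 2 for Ifnb1. Tnf and Il1b were tested and did not pass (5.82 ± 0.694 and 4.84 ± 0.404 CPM, adjusted p = 0.225, and 22.8 ± 2.62 and 24.6 ± 1.28 CPM, adjusted p = 0.450).

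Of the 58 genes, 30 had enough counts to be tested by edgeR's filter on low counts, and 28 did not. No count in any library was listed for 9 of the latter, the ligands Ccl1, Ccl19, Ccl20, Ccl21b, Ccl27b, Cxcl13 and Cxcl15 and the receptors Ccr4 and Ccr8. A count of 0 allows a level of up to 0.115 to 0.169 CPM per library, the value of 3 counts, which covers counting error only. The other 19 untested genes had few counts: the highest count in a single library was 16 for Ccl22, 13 for Cxcl9, 10 for Cxcl3 and for Cxcr5, 9 for Cxcl5, 7 for Ccr6 and for Ccr7 and 6 for Ccl26. It was 4 for Ccl28, Cxcr1 and Ackr1, 3 for Ccl17, Xcl1 and Cxcl11, 2 for Ackr2 and Ackr3 and 1 for Ccl11, Ccl21a and Cxcl17. These 28 genes were left out of the analysis reported, and the depth limits what can be said of differences in them. With no filter on low counts, none of the 28 reached an adjusted p under 0.05. They include the lymphoid tissue ligands Ccl19, Ccl21a and Cxcl13 with their receptors Ccr7 and Cxcr5, and 3 of the 4 atypical receptors.

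The levels of the 30 tested genes were compared per length, as CPM per kb of the gene length in the deposited table, over all 8 libraries. Ccl6, a CC ligand abundant in myeloid cells, was highest at 279 ± 25.1 CPM per kb (SD, n = 8), followed by Ccl9, a related ligand of Ccr1, at 218 ± 15.2. The receptors Ccr2, for the monocyte chemoattractants, and Cxcr4, for Cxcl12, came next at 179 ± 18.3 and 120 ± 10.2 CPM per kb. The membrane-bound ligand Cxcl16 stood at 65.3 ± 4.86 and Cxcl14, a ligand made by many tissues at rest, at 33.7 ± 6.00 CPM per kb. Each of these steps was larger than the SDs of both neighbours added together. Further down this no longer held: Ccl24 (5.97 ± 0.973) and Ccl4 (5.84 ± 1.18), or Ccr3 (1.79 ± 0.447) and Cxcr2 (1.78 ± 0.448), could not be ordered. Ackr4, the only atypical receptor tested, was lowest at 0.0883 ± 0.0341 CPM per kb. In counts, Ccr2, Ccl9 and Ccl6 alone made up 74.9% to 80.2% of what the 58 genes held in each library.

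**Figure D1:**
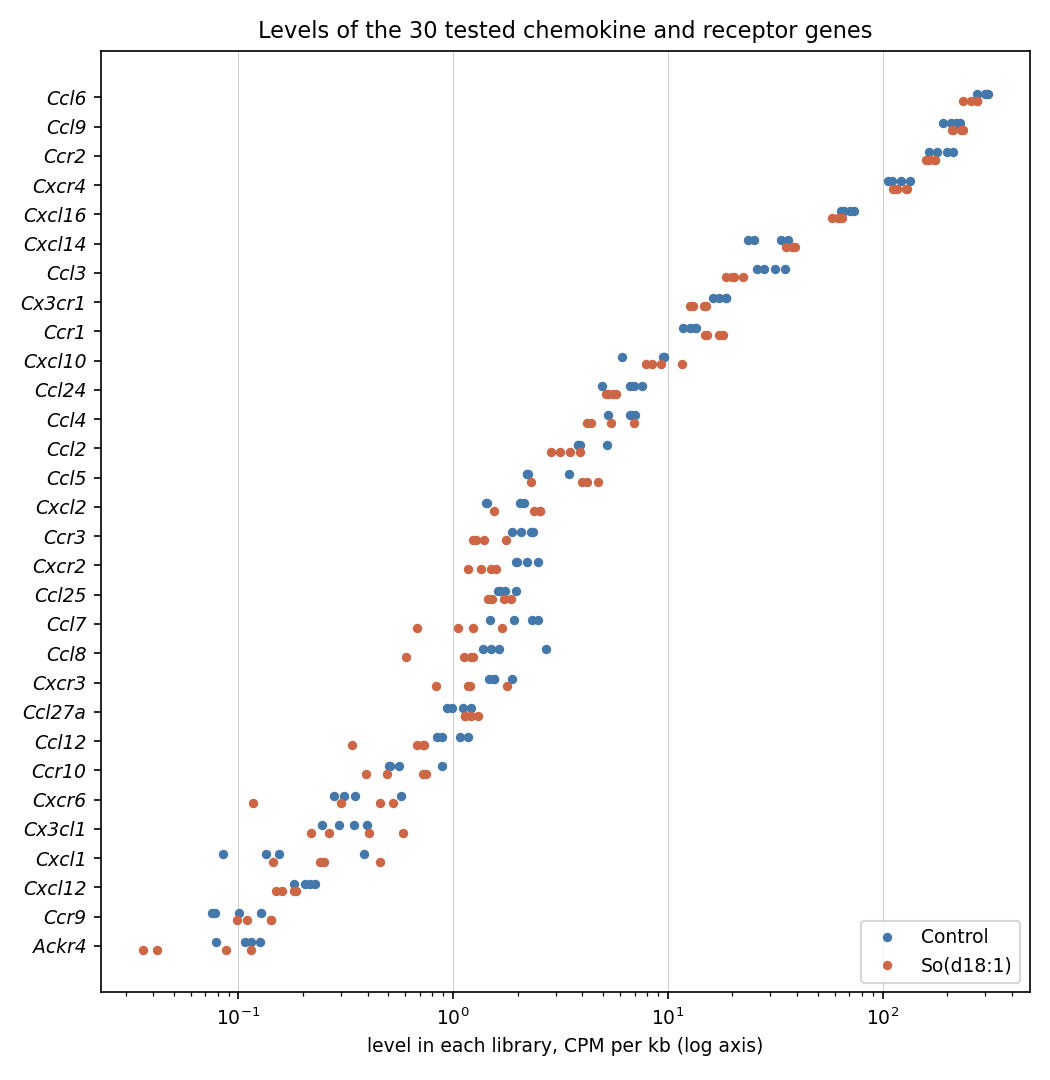
Level of the 30 tested chemokine and receptor genes in CPM per kb of gene length (log axis), with 1 point per library and the genes ordered by their mean over the 8 libraries. The levels run from 279 for Ccl6 to 0.0883 for Ackr4, and the So(d18:1) and Control points lie close together beside the spread between genes.

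So(d18:1) libraries were compared with Control libraries by edgeR's quasi-likelihood test over the 14514 genes tested, with Benjamini-Hochberg adjustment over all of them. An adjusted p under 0.05 was reached by 6 of the 30 tested genes (20.0%), against 8.94% of all genes tested. Of these, 5 fell with So(d18:1) (16.7%, against 5.07%) and 1 rose (3.33%, against 3.87%). Receptors made up 4 of the 6, with Ccr3, Cxcr2 and Cx3cr1 lower and Ccr1 higher, and the ligands were Ccl3 and Ccl6, both lower. At the ends of the range, Ccl6 fell by 12.2% and Cxcr2 fell by 34.9%. The libraries of the groups did not overlap in 7 of the 30 genes (23.3%, against 15.0% of all genes), 6 lower (20.0%, against 7.87%) and 1 higher (3.33%, against 7.14%). An unadjusted p under 0.05 was reached by 14 genes (46.7%, against 23.4%). Under the threshold of the study's methods, a fold change of 1.5 or more with an unadjusted p under 0.05, 4 genes passed (13.3%, against 3.89%): Cxcr2, Ccr3, Ccl7 and Ccl8, all lower. That count was 2 without Control replicate 3. Ccl5 fell just short of the fold change, with a level higher by 49.8% (unadjusted p = 0.0134). With no filter on low counts, 10 of 49 genes reached an adjusted p under 0.05 (adding Ccl5, Ccl7, Ccr2 and Cxcl16) and 8 passed the study's threshold. These 8 may include genes that were untested in the analysis reported. The median log2 difference (So(d18:1) minus Control) of the 30 genes was −0.16, beside 0.0036 for all genes tested, and 19 of the 30 had a lower mean (63.3%, against 49.1%). These counts describe the genes that passed the filter on low counts, not all 58.

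**Figure D2:**
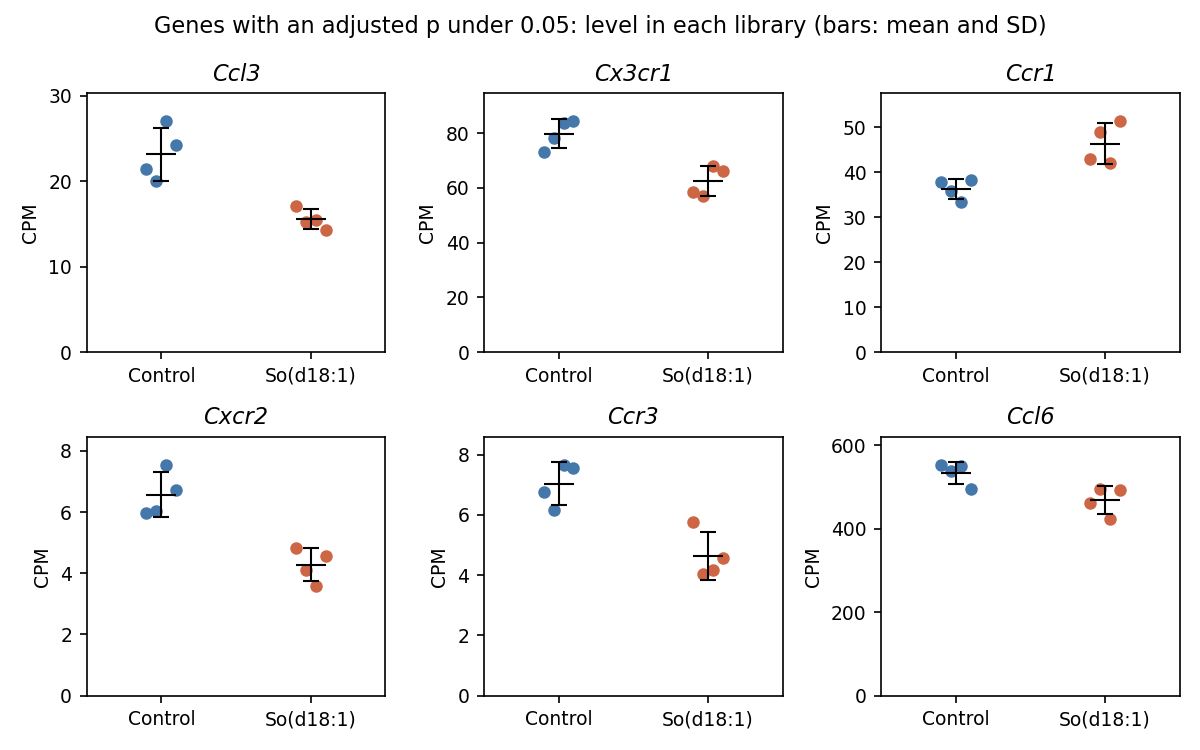
Level in CPM (linear axis from 0) of the 6 genes with an adjusted p under 0.05 in each of the 4 Control and 4 So(d18:1) libraries, 1 point per library, with bars for the mean and SD. Ccl3, Cx3cr1, Cxcr2 and Ccr3 sit lower and Ccr1 higher in every So(d18:1) library than in any Control library, while the highest So(d18:1) library of Ccl6 (495) lies above its lowest Control library (494).

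Among the 23 CC ligands, 12 were tested, of which 2 fell, none rose, 7 others had a lower mean and 3 a higher one. For this and the other families below, 5.07% of all genes tested fell and 3.87% rose, and each family holds few tested genes. Ccl3 (MIP-1α), a ligand of Ccr1 that draws in monocytes and neutrophils, was at 21.4, 20.0, 27.0 and 24.2 CPM in the Control libraries and at 17.1, 15.2, 15.5 and 14.3 CPM in the So(d18:1) libraries. Every So(d18:1) library was below every Control library. The mean went from 23.1 ± 3.11 to 15.5 ± 1.16 CPM and so fell by 33.1% (log2 difference −0.58, SE 0.0915, adjusted p = 2.77e-04). Ccl4 (MIP-1β), a related ligand that lies near Ccl3 on the chromosome, had a log2 difference of −0.31 (SE 0.170) and did not pass (adjusted p = 0.285).

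Ccl6, the ligand with the highest level per length, was at 553, 537, 549 and 494 CPM in Control and at 462, 495, 423 and 492 CPM in So(d18:1) libraries. The lowest Control library lay just under the highest So(d18:1) library. With a log2 difference of −0.19, Ccl6 passed (SE 0.0519, adjusted p = 0.0269). This call was lost when Control replicate 1 (adjusted p = 0.0888), Control replicate 3 (0.0694), So(d18:1) replicate 1 (0.0763) or So(d18:1) replicate 3 (0.0980) was left out. Ccl9, which lies near it on chromosome 11, was at 671, 699, 631 and 582 CPM in Control and at 644, 707, 647 and 722 CPM in So(d18:1) libraries. The groups overlapped, and the log2 difference was 0.075 (SE 0.0550, adjusted p = 0.453).

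The monocyte chemoattractants Ccl2, Ccl7, Ccl8 and Ccl12 lie together on chromosome 11 and were low in these cells. Ccl2 (MCP-1), the best known ligand of Ccr2, was at 4.33, 4.34, 5.94 and 4.42 CPM in Control and at 4.43, 3.98, 3.59 and 3.26 CPM in So(d18:1) libraries. Control replicate 3 was high, and So(d18:1) replicate 1 lay just above the other Control libraries. Its difference of −0.33 (log2, SE 0.152, unadjusted p = 0.0437) did not pass adjustment (adjusted p = 0.199).

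Ccl7, which also binds Ccr2, was at 1.54, 1.19, 1.98 and 1.86 CPM in Control and at 0.841, 0.995, 1.35 and 0.543 CPM in So(d18:1) libraries. Only So(d18:1) replicate 3 lay within the Control range. Ccl7 had a log2 difference of −0.84 (SE 0.281, adjusted p = 0.0690). It passed when Control replicate 2 (adjusted p = 0.0394) or So(d18:1) replicate 3 (0.0364) was left out. Ccl8, a ligand of Ccr8 in the mouse, was at 0.770, 0.836, 1.39 and 0.702 CPM in Control and at 0.617, 0.633, 0.573 and 0.310 CPM in So(d18:1) libraries, from 8 to 33 counts. The groups did not overlap, yet the difference of −0.82 (SE 0.339) did not pass (adjusted p = 0.145). Ccl12, another ligand of Ccr2, was at 0.577, 0.478, 0.632 and 0.454 CPM in Control and at 0.393, 0.181, 0.365 and 0.388 CPM in So(d18:1) libraries, from 4 to 15 counts. Here too all So(d18:1) libraries were below all Control libraries, with a log2 difference of −0.68 (SE 0.379, adjusted p = 0.291).

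Ccl5 (RANTES), a ligand of Ccr1 and Ccr3, was at 2.12, 2.11, 3.33 and 2.15 CPM in Control and at 3.81, 2.22, 4.53 and 4.04 CPM in So(d18:1) libraries. It had the largest higher mean among the CC ligands, but Control replicate 3 lay above So(d18:1) replicate 2. The log2 difference of 0.58 (SE 0.214) did not pass (adjusted p = 0.0995), and it passed without Control replicate 3 (adjusted p = 0.0312) or So(d18:1) replicate 2 (0.0211). Ccl24 (eotaxin-2), a ligand of Ccr3 that macrophages make under type 2 cytokines, was at 9.86, 8.96, 6.37 and 8.63 CPM in Control and at 7.18, 6.65, 7.39 and 6.83 CPM in So(d18:1) libraries. Control replicate 3 lay below all So(d18:1) libraries. Ccl24 had a log2 difference of −0.27 (SE 0.125, adjusted p = 0.198), and passed without that library (adjusted p = 0.0434). Ccl25, a thymic and intestinal ligand of Ccr9 (−0.10, SE 0.0994, adjusted p = 0.593), and Ccl27a, a skin ligand of Ccr10 (0.18, SE 0.166, adjusted p = 0.567), did not pass, and 45% of the 50-base words of Ccl27a transcripts also occur in another gene, so its counts are uncertain.

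The 13 CXC ligands held no gene that passed, with 6 tested, 4 of them with a higher and 2 with a lower mean. Cxcl16, a membrane-bound ligand of Cxcr6 that also serves as a scavenger receptor, was at 200, 194, 223 and 212 CPM in Control and at 187, 176, 195 and 192 CPM in So(d18:1) libraries. So(d18:1) replicate 3 lay just above the lowest Control library. The log2 difference was −0.15 (SE 0.0488, adjusted p = 0.0658), and adjusted p = 0.0263 without Control replicate 2. Of the exon bases of Cxcl16, 18.3% overlap Zmynd15 on the opposite strand, and the strand setting of the counting is not given in the sources used here.

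Cxcl14 was at 45.9, 43.2, 66.2 and 61.6 CPM in Control and at 68.9, 64.6, 71.5 and 70.2 CPM in So(d18:1) libraries. The Control libraries were spread widely, and Control replicate 3 lay above So(d18:1) replicate 2. The log2 difference was 0.34 (SE 0.143, adjusted p = 0.207). The neutrophil attractants Cxcl1 and Cxcl2, ligands of Cxcr2, had log2 differences of 0.59 (SE 0.468, adjusted p = 0.486) and 0.35 (SE 0.179, adjusted p = 0.254), at 0.159 to 0.854 and 2.93 to 5.27 CPM per library. The interferon-inducible Cxcl10, a ligand of Cxcr3, was at 19.5 ± 3.91 and 21.0 ± 3.73 CPM (0.10, SE 0.174, adjusted p = 0.799). Cxcl12, the ligand of Cxcr4 made mainly by stromal cells, was at 1.70 ± 0.157 and 1.39 ± 0.139 CPM (−0.29, SE 0.211, adjusted p = 0.454). None of these 4 ligands passed. Of the exon bases of Cxcl10, 5.91% overlap Art3 on the opposite strand, and 5.84% of the 50-base words of Cxcl2 also occur in another gene. Cx3cl1 (fractalkine), the ligand of Cx3cr1, was at 0.860 to 2.30 CPM per library and had a log2 difference of 0.18 (SE 0.288, adjusted p = 0.761).

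**Figure D3:**
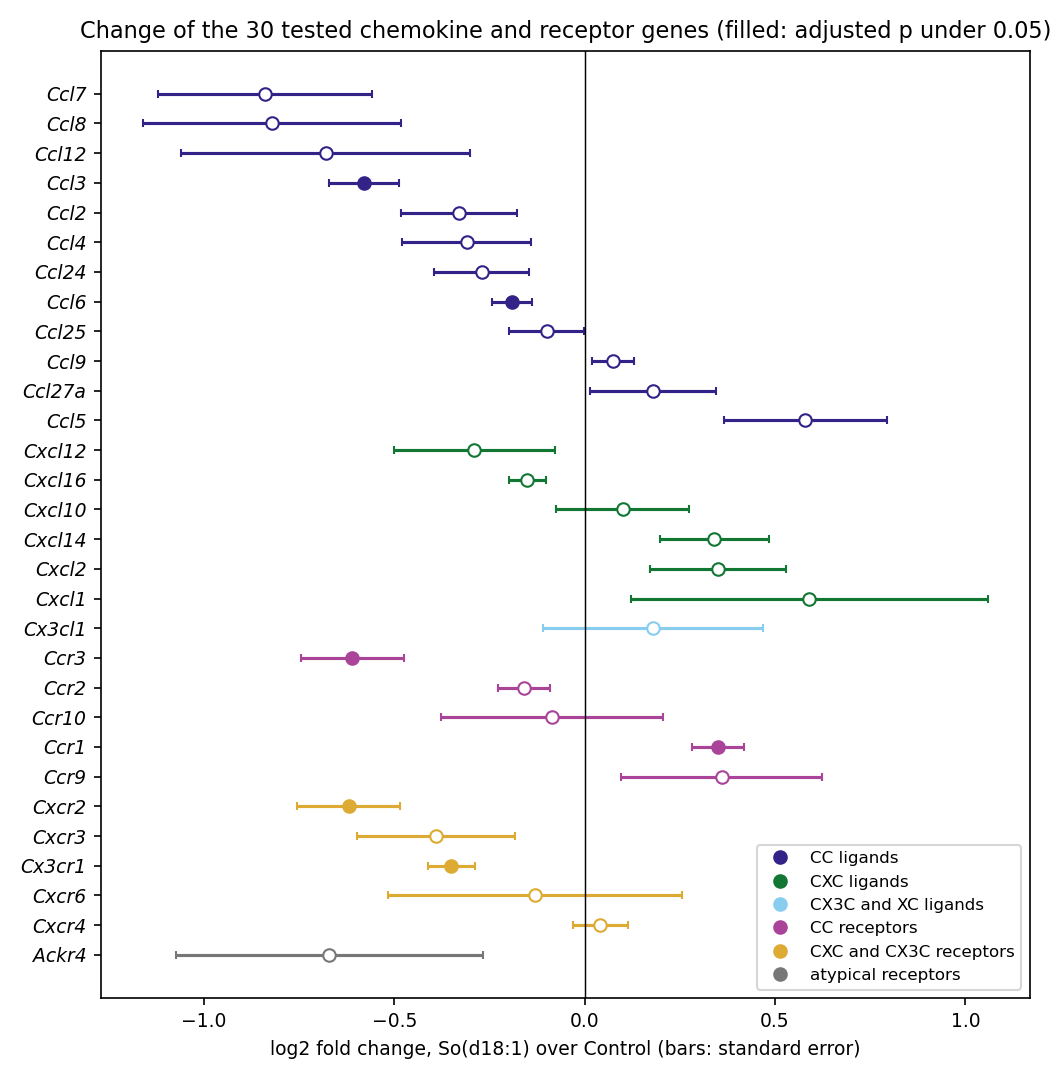
Log2 fold change (So(d18:1) minus Control) with its SE for the 30 tested chemokine and receptor genes, grouped by family, with filled points for an adjusted p under 0.05. Ccl3, Ccl6, Ccr3, Cxcr2 and Cx3cr1 lie left of 0 and Ccr1 right of it, and the widest bars belong to genes of few counts such as Cxcl1.

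Of the 9 CC receptors reported, 5 were tested, and 1 rose and 1 fell, beside 3.87% and 5.07% of all genes tested. Ccr1, which binds Ccl3, Ccl5, Ccl6 and Ccl9, was at 37.8, 35.9, 33.4 and 38.2 CPM in Control and at 43.0, 48.9, 42.0 and 51.3 CPM in So(d18:1) libraries. Every So(d18:1) library was above every Control library. The mean went from 36.3 ± 2.17 to 46.3 ± 4.54 CPM, a rise of 27.7% (log2 difference 0.35, SE 0.0678, adjusted p = 0.00182). It was the only one of the 30 genes that rose.

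Ccr2, which shares 1.91% of its 50-base words with other genes, was at 1350, 1431, 1117 and 1205 CPM in Control and at 1109, 1190, 1071 and 1186 CPM in So(d18:1) libraries. The Control libraries varied more than the So(d18:1) libraries (SD 141 and 58.8 CPM), and the groups overlapped. The log2 difference was −0.16 (SE 0.0679, adjusted p = 0.163), and adjusted p = 0.0179 without Control replicate 3.

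Ccr3, the eotaxin receptor of eosinophils, was at 6.78, 6.17, 7.67 and 7.55 CPM in Control and at 5.78, 4.03, 4.17 and 4.58 CPM in So(d18:1) libraries, from 80 to 183 counts. All So(d18:1) libraries were lower. The mean went from 7.04 ± 0.704 to 4.64 ± 0.795 CPM and fell by 34.5% (log2 difference −0.61, SE 0.135, adjusted p = 0.00610). In bulk RNA, fewer cells of a type and less RNA per cell cannot be told apart, which bears on receptors such as this one that other leukocytes carry. Ccr9, the gut homing receptor of Ccl25 (0.36, SE 0.264, adjusted p = 0.447), and Ccr10, the receptor of Ccl27a and Ccl28 (−0.086, SE 0.292, adjusted p = 0.900), stood near 1 CPM and did not pass. The exons of Ccr9 overlap an antisense transcript over 18.8% of their bases.

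Of the 7 CXC and CX3C receptors, 5 were tested and 2 fell, beside 5.07% of all genes tested. Cx3cr1, the fractalkine receptor, was at 73.0, 78.3, 83.8 and 84.4 CPM in Control and at 58.7, 57.0, 68.0 and 66.2 CPM in So(d18:1) libraries. The highest So(d18:1) library stayed below the lowest Control library. With means of 79.9 ± 5.34 and 62.5 ± 5.42 CPM, Cx3cr1 fell by 21.8% (log2 difference −0.35, SE 0.0615, adjusted p = 8.36e-04). Cxcr2, through which neutrophils follow Cxcl1 and Cxcl2, was at 5.97, 6.05, 7.55 and 6.73 CPM in Control and at 4.82, 4.12, 3.59 and 4.58 CPM in So(d18:1) libraries, from 69 to 179 counts. The groups did not overlap. The means were 6.57 ± 0.733 and 4.28 ± 0.542 CPM, and Cxcr2 fell by 34.9%, the most among the 6 called genes (log2 difference −0.62, SE 0.134, adjusted p = 0.00484). Of the 50-base words of Cxcr2 transcripts, 6.68% also occur in another gene.

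Cxcr4, the receptor of Cxcl12 that holds leukocytes in the marrow, was at 192, 201, 243 and 221 CPM in Control and at 212, 202, 233 and 234 CPM in So(d18:1) libraries. The So(d18:1) libraries all lay within the Control range, at a log2 difference of 0.041 (SE 0.0717, adjusted p = 0.787). Cxcr3, the receptor of Cxcl9, Cxcl10 and Cxcl11, was at 2.79 ± 0.310 and 2.15 ± 0.679 CPM (−0.39, SE 0.207, adjusted p = 0.263). Cxcr6, the receptor of Cxcl16, was at 0.729 ± 0.258 and 0.676 ± 0.349 CPM (−0.13, SE 0.386, adjusted p = 0.885). Ackr4, which takes up Ccl19, Ccl21 and Ccl25, was at 0.574 ± 0.109 and 0.376 ± 0.202 CPM, and its log2 difference of −0.67 (SE 0.403) did not pass (adjusted p = 0.338); 8.9% of its exon bases overlap Acad11 on the opposite strand. None of these receptors was called in either direction.

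The 38 ligands reported do not include Pf4 and Ppbp, which are described below. Summed over the 38, the libraries held 1433 to 1566 CPM in Control and 1428 to 1550 CPM in So(d18:1), and these ranges overlap. Summed over the receptors reported, they held 1500 to 1764 and 1429 to 1552 CPM, which overlap too. Ccr2 alone made up 1071 to 1431 CPM of these sums. Set beside each other, Ccr1 rose while its ligands Ccl3 and Ccl6 fell. Its ligands Ccl5 and Ccl9, with log2 differences of 0.58 and 0.075, did not pass. For Cxcr2 and Ccr3, which fell, ligands among the 30 tested genes had log2 differences of 0.59 (Cxcl1), 0.35 (Cxcl2), 0.58 (Ccl5), −0.27 (Ccl24) and −0.84 (Ccl7). None of these ligands passed. Ligands outside the symbol rule, such as Ppbp (−0.11, adjusted p = 0.606), were left out of this comparison.

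Many of these genes lie in clusters. On chromosome 9 of the mm10 build, Ccr9, Cxcr6, Ccr1, Ccr3 and Ccr2 lie in this order between 123678439 and 124113557, within 435 kb. Ccr1 (chr9:123962124-123968692, minus strand) rose, the next of these genes, Ccr3 (chr9:124021972-124031689, plus strand), fell, and Ccr2 after it did not pass. On chromosome 11, Ccl5, Ccl9, Ccl6, Ccl3 and Ccl4 lie between 83525778 and 83664683, within 139 kb. Ccl6 (chr11:83587882-83593087, minus strand) and Ccl3 (chr11:83647844-83649355, minus strand) fell, and Ccl5, Ccl9 and Ccl4 did not pass, with log2 differences of 0.58, 0.075 and −0.31. On the same chromosome, the 4 tested genes of the cluster from Ccl2 to Ccl1 (82035571 to 82305690) all had negative values, from −0.84 to −0.33, and none passed. Cx3cr1 (chr9:119901616-120069879, minus strand) and Cxcr2 (chr1:74153989-74161246, plus strand) lie apart from these clusters, near the untested Ccr8 and Cxcr1.

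**Figure D4:**
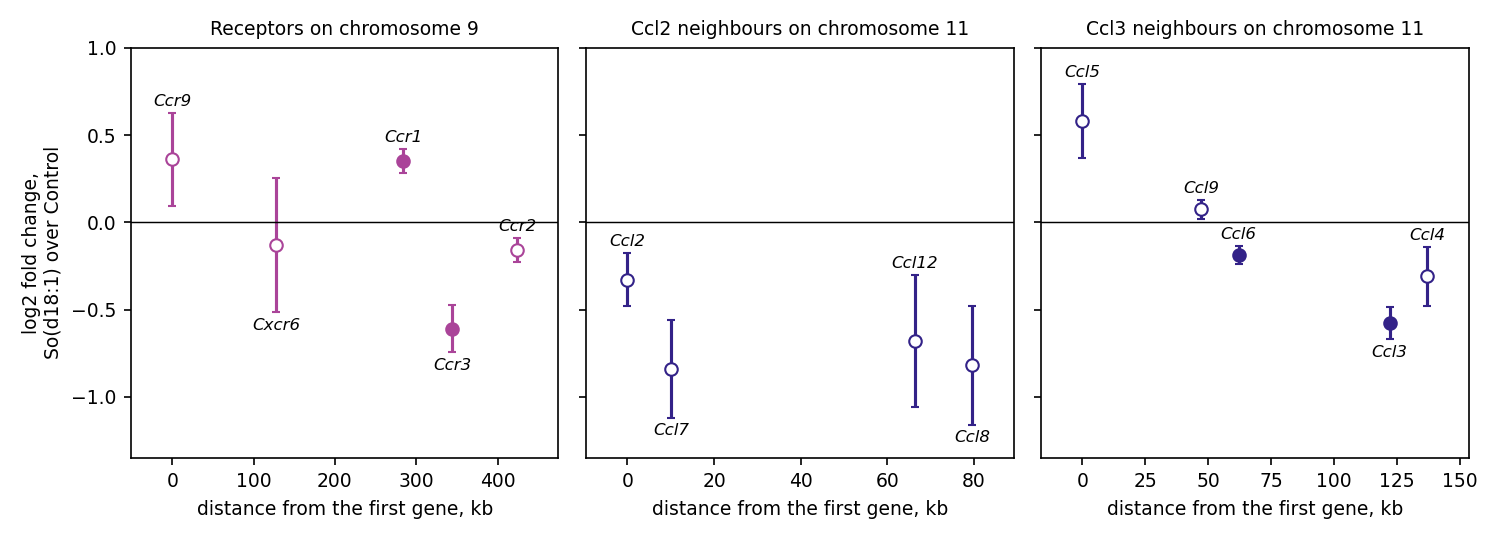
Log2 fold change (So(d18:1) minus Control) with its SE for the tested genes of the chromosome 9 receptor cluster and of the chromosome 11 ligand clusters, against the distance in kb from the start of each cluster. In the receptor cluster Ccr1 (0.35) and Ccr3 (−0.61) lie on opposite sides of 0.

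The 250 bases before the start of the called genes of these clusters are shown because Ccr1 rose and Ccr3 fell within 1 cluster, and Ccl6 and Ccl3 both fell in another. They are from RefSeq on GRCm38.p6, the patched form of the mm10 build, 5′ to 3′ on the strand of the gene, and capitals mark matches to the motifs searched. The windows are, in the order of the lines, chr9:123968693-123968942 (minus strand), chr9:124021721-124021970 (plus), chr11:83593088-83593337 (minus) and chr11:83649379-83649628 (minus).
Ccr1: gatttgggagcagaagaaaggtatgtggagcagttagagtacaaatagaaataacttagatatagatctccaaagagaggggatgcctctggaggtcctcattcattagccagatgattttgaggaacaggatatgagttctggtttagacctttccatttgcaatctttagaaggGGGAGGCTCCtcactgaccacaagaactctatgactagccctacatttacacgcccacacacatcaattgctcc
Ccr3: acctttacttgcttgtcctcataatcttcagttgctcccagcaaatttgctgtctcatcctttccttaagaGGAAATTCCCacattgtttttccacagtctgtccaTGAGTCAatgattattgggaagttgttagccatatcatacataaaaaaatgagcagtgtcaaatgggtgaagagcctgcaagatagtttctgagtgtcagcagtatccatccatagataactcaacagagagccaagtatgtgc
Ccl6: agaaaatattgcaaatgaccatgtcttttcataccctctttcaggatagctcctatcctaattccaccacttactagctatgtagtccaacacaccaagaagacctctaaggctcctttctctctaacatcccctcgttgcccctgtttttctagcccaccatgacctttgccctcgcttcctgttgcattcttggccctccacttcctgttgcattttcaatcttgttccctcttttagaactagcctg
Ccl3: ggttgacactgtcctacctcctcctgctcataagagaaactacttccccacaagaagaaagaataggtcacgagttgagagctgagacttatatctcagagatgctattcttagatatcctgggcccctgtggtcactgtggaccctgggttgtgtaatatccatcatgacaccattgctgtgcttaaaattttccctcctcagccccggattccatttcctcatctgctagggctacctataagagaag
The motifs were searched on both strands: the TATA box TATAAA, the PU.1 core GAGGAAG, the AP-1 site TGANTCA, the C/EBP site TTGCNNCAA, the hypoxia response core ACGTG, the interferon response element GAAANNGAAA and the NF-kB site by its name. Ccr1 has an NF-kB match 74 to 65 bases before its start. Ccr3 has an AP-1 match at 144 to 138 bases and, on the other strand, an NF-kB match at 179 to 170 bases before its start. None of these letters is in the windows of Ccl6 and Ccl3. A match is a string of letters and not a bound site, and the direction of a gene cannot be read from it: Ccr1 rose and Ccr3 fell, and both have an NF-kB match.

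Windows could be matched to 44 of the 58 genes, 51 windows in all, since a gene can have several starts. The NF-kB letters were in 21.6% of these windows and in 7.25% of all 32851 windows. They were found before Ackr2, Ccl1, Ccl20, Ccl9, Ccr1, Ccr3, Ccr6, Cxcl1, Cxcl10, Cxcl2 and Cxcl3. Of the 6 of these that were tested, Ccr1 and Ccr3 were called, beside 20.0% of the 30 tested chemokine and receptor genes and 8.94% of all genes tested. TATAAA was in 25.5% against 12.4% of windows, TGANTCA in 11.8% against 6.75%, GAGGAAG in 13.7% against 10.6%, GAAANNGAAA in 5.88% against 2.98%, TTGCNNCAA in 3.92% against 1.74% and ACGTG in 11.8% against 16.6%. These shares are descriptions of the letters and were not tested.

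A list of 9 genes tied to the chemokine system that the symbol rule leaves out held Pf4, Ppbp, Xcr1, Ccrl2, Ccr1l1, Mif, Cd74, Gpr35 and Gpr75. Of these, 7 were tested, 1 rose and none fell. Pf4, which encodes the CXC chemokine Cxcl4 of platelets and macrophages, was at 229, 201, 209 and 225 CPM in Control and at 330, 405, 340 and 391 CPM in So(d18:1) libraries. The groups were far apart. Its mean rose from 216 ± 12.9 to 366 ± 36.9 CPM (log2 difference 0.76, SE 0.0648, adjusted p = 2.08e-06), a larger positive log2 difference than that of any of the 30 genes. It lies on chromosome 5 at 90772435 to 90773383, between the untested Cxcl5 and Cxcl3. Ppbp, another gene of this list, lies between Cxcl5 and Pf4 and did not pass (log2 difference −0.11, SE 0.109, adjusted p = 0.606).

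For this and the lists that follow, of all genes tested 3.87% rose and 5.07% fell. Among 38 genes of signalling behind chemokine receptors, all tested, 1 rose (2.63%) and 4 fell (10.5%). Grk3, a kinase that switches off activated receptors, fell from 47.1 ± 1.77 to 35.3 ± 4.53 CPM (log2 difference −0.42, adjusted p = 7.96e-04), and Lyn and Fgr, kinases of the Src family in myeloid cells, had log2 differences of −0.19 (adjusted p = 0.00428) and −0.32 (adjusted p = 0.0230). Rgs14, a regulator of G protein signalling, rose (0.38, adjusted p = 0.00339). Of 14 other chemoattractant receptors, 13 were tested, 3 fell (23.1%) and none rose: Ptafr, the receptor of platelet-activating factor (−0.34, adjusted p = 1.48e-05), S1pr2, a receptor of sphingosine 1-phosphate (−0.24, adjusted p = 0.00538), and Cmklr1, the chemerin receptor (−0.20, adjusted p = 0.0278). The receptors that passed in this list were thus all lower. S1pr1 (0.17, adjusted p = 0.0524) and Cysltr1 (0.16, adjusted p = 0.0531) were higher without overlap between the groups and narrowly did not pass.

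Of 13 proteases that cut chemokines, all tested, 3 rose (23.1%) and 3 fell (23.1%), beside 3.87% and 5.07% of all genes. Those that rose were Mmp8, a neutrophil collagenase, from 59.2 ± 7.43 to 141 ± 12.9 CPM (log2 difference 1.25, adjusted p = 1.25e-05), Mmp13, also a collagenase (1.02, adjusted p = 7.40e-06), and Ctsl, a lysosomal protease (0.47, adjusted p = 1.25e-06). Among those that fell was Ctsg, a protease of neutrophil granules (−0.66, adjusted p = 0.00323). Of 30 inflammatory genes that macrophages induce, 22 were tested, 4 rose (18.2%) and 2 fell (9.09%), with Ier3 (0.60, adjusted p = 1.15e-07), Birc3 (0.41, adjusted p = 8.41e-06) and Tnfaip2 (0.33, adjusted p = 1.12e-05) higher and Cd83 (−0.81, adjusted p = 2.90e-06) lower. The list thus held changes in both directions.

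Marker genes of neutrophils, monocytes and macrophages were also compared between the groups. Of 9 neutrophil markers, all tested, 4 fell (44.4%, against 5.07% of all genes; S100a8, S100a9, Elane and Mpo) and none rose, and their summed level was 1694 to 2338 CPM in Control but 1335 to 1514 CPM in So(d18:1) libraries. Of 5 monocyte markers, 4 fell (80.0%; Ly6c2, Plac8, Chil3 and F13a1), with sums of 2118 to 2187 and 1648 to 1757 CPM. Most of the monocyte sum was F13a1 alone, at 1762 ± 20.6 and 1414 ± 39.3 CPM. The neutrophil and monocyte sums were lower in every So(d18:1) library than in any Control library. Of 8 macrophage markers, 2 fell (25.0%; Mertk and Cd68) and 1 rose (12.5%; Itgam), with sums of 30650 to 32994 and 26524 to 31475 CPM. Lyz2 made up most of the macrophage sum, at 20723 ± 1038 and 18752 ± 1608 CPM. The part of the neutrophil and monocyte markers in the lower levels of Cxcr2, Ccr3, Cx3cr1 and Ccl3 was not tested.

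Markers of other leukocytes were counted to different extents. Of 6 T cell markers only Cd4, which macrophages also express, was tested and fell (log2 difference −0.42, adjusted p = 0.00865), and Cd3e, Cd3d and Cd3g had at most 3 counts in any library. None of the 4 NK cell markers and none of the 4 mast cell and basophil markers had enough counts, with sums of at most 0.677 and 0.729 CPM in any library. All 5 B cell markers were tested, Cd79b with 215 to 373 counts per library, and 1 of them fell (20.0%), Pax5 (−1.26, adjusted p = 0.0298), with sums of 16.5 to 19.4 CPM in Control and of 13.3 to 17.1 CPM in So(d18:1) libraries. Of 6 dendritic cell and 6 stromal cell markers, 5 each were tested and none passed, with sums of 6.20 to 8.56 and 6.79 to 8.80 CPM for the first and 6.61 to 10.3 and 6.05 to 8.60 CPM for the second. No gene of these marker lists was at 0 in all libraries.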

How the data were processed

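Poly(A) RNA of BMDM was sequenced in 4 Control and 4 So(d18:1) libraries. According to the submitters' processing notes, Trim Galore 0.6.7 was used for trimming, HISAT2 2.2.1 for alignment to mm10 and featureCounts 2.0.1 for counting. The authors deposited raw counts per gene in 1 table for all libraries. Symbols came from GENCODE release 21 and matched 52081 of the 55357 identifiers. Those without one stayed in the fit (0.169% to 0.325% of counts).

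Counts were analysed with edgeR 4.0.16 in R 4.3.3: filterByExpr, TMM scaling, its robust quasi-likelihood F test and Benjamini-Hochberg adjustment over 14514 genes. The SE was obtained from the log2 fold change and F (|log2 fold change| / √F), and CPM (counts scaled per library) use TMM-scaled library sizes. The fit was tested on simulated data. Precision is limited by 4 libraries per group. Total counts did not differ detectably between groups (exact permutation test, two-sided, p = 0.314; the smallest possible is 0.0286).

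The symbol rule takes 1 further gene, which is not reported here and is left out of every count over the chemokine and receptor genes. The genes and lists were chosen with earlier results of these data known, so counts over them are given beside those over all genes, with no test of a list. Named with the value in every library were genes with an adjusted or unadjusted p under 0.05 or no overlap, the 6 with the highest CPM per kb and Ccl2. Of other lists, genes with an adjusted p under 0.05 were named, at most 4 per list (in the marker lists, all). The ratios between genes in the closing section were chosen after their values were seen. Alternatives were DESeq2 size factors, upper quartile scaling, library size alone, no filter, at least 10 counts in every library, a replicate block, DESeq2 1.42.0 (Wald test), limma 3.58.1 (voom) and each library left out in turn. Correlations of deviations from the group mean were −0.00351 to 0.1 for libraries with the same number and −0.136 to 0.107 for others. The numbers were therefore not taken as pairs, although pairing was not excluded. Figures were drawn with matplotlib 3.10.9.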

Additional observations from a re-analysis of the deposited data

Results flagged for a closer look

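In 7 of the 60 groups of 4 libraries examined (30 genes in 2 groups), 1 library stood apart from the other 3 by Dixon's criterion, where chance flags about 1 in 20 groups, or 3.0 of 60. Values in brackets are the gap to the nearest library divided by the range of the group, both on log2(CPM + 0.1). On CPM without logs, 6 groups passed, and Ccl4 (0.825) and Ccl8 (0.812) did not. These 6 include a group not flagged on the log scale, Ccr10 in Control libraries, where replicate 4 was at 1.53 against 0.866 to 0.970 CPM. Among Control libraries, replicate 3 was high for Ccl2, at 5.94 CPM against 4.33 to 4.42 (0.938), and for Ccl5, at 3.33 against 2.11 to 2.15 CPM (0.963). Control replicate 2 was low for Ccl4, at 3.46 against 4.42 to 4.62 CPM (0.844), and Control replicate 4 was low for Cxcl10, at 13.7 against 21.3 to 21.6 CPM (0.969). Among So(d18:1) libraries, replicate 2 was low for Ccl12, at 0.181 against 0.365 to 0.393 CPM (0.896), and for Cxcl2, at 3.21 against 4.93 to 5.27 CPM (0.863). So(d18:1) replicate 4 was low for Ccl8, at 0.310 against 0.573 to 0.633 CPM (0.851). None of these genes had an adjusted p under 0.05.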

How the results depend on the processing

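Ccl3, Ccr1, Ccr3, Cx3cr1 and Cxcr2 kept their direction and an adjusted p under 0.05 under all 8 other settings and in all 8 fits without 1 library. Ccl6 kept both under the 8 settings and lost its call in 4 of the 8 fits without 1 library. The count of chemokine and receptor genes with an adjusted p under 0.05, 6 in the analysis reported, was 10 of 49 tested with no filter on low counts (adding Ccl5, Ccl7, Ccr2 and Cxcl16) and 5 to 8 without 1 library. With the replicate number as a block it was 10 of 30 (adding Ccl5, Ccr2, Cxcl14 and Cxcl16), and 1784 genes in all passed. The correlations of same-numbered libraries were −0.00351, 0.1, 0.0331 and 0.00909, and not every library correlated best with its own number. Cxcl16 also passed with upper quartile scaling (adjusted p = 0.0417) and Cxcl14 in limma-voom (0.0382). The count past the study's threshold, 4, was 8 with no filter and 2 to 6 without 1 library, lowest without Control replicate 3. Over all genes, 1298 passed, and 815 (without So(d18:1) replicate 2) to 1370 (without Control replicate 2) with 1 library left out. Among genes that were not called, the log2 difference changed sign without 1 library for Ccr10 (−0.21 to 0.15), Cx3cl1 (−0.10 to 0.37), Cxcr4 (−0.005 to 0.11), Cxcr6 (−0.37 to 0.17) and Cxcl10 (−0.04 to 0.17). The smaller number of libraries is part of such fits, and the cause of the other changes was not tested. Depth limits the 28 untested genes and those near 1 CPM.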

Other observations

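Within each library, the CPM of Ccl6 divided by that of the nearby Ccl9 was 0.824, 0.769, 0.871 and 0.848 in Control and 0.717, 0.701, 0.653 and 0.682 in So(d18:1) libraries. This ratio does not depend on the scaling of the libraries, and its groups did not overlap although those of Ccl6 alone did. The ratio of Ccr1 to Ccr3 was 5.20 ± 0.649 (SD, n = 4) in Control and 10.2 ± 2.03 in So(d18:1) libraries and did not overlap between the groups either. The ratios of Ccl3 to Ccl4 (3.39 to 5.99 per library) and of Ccr2 to Cx3cr1 (13.3 to 20.9) overlapped. These 4 ratios were chosen after the values were seen and were not tested.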
